A study of Homo sapiens with 12 samples.

Results

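The ERBB family of receptor tyrosine kinases was followed by RNAseq in SKBR-3 cells, an established HER2-amplified, estrogen receptor-negative breast cancer cell line. The members were the genes whose symbol was EGFR, ERBB2 (HER2), ERBB3 (HER3) or ERBB4 (HER4), which gave 4 of the 20531 genes listed in each library. The 12 libraries formed 4 groups of 3 replicates. A pool of siRNAs against FOXA1, or a non-targeting (NT) pool as control, was combined with the vehicle DMSO or with lapatinib at 300 nM. By the labels the drug was given for 24 h and the siRNA for 48 h. The methods put the siRNA 24 h ahead of the drug, which matches the 48 h if they include the 24 h in drug. Whether they do is not settled here. All groups were one cell line, so the replicates are not different tumors, and the labels do not say whether they were separate cultures. The p-values therefore measure only the spread between these samples.

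ERBB receptors signal as pairs. A ligand opens the extracellular part of a receptor, which then joins another family member, and the kinase of one partner phosphorylates the tail of the other. ERBB2 has no known ligand of its own and is the preferred partner of the others, whereas ERBB3 binds neuregulins but has a weak kinase and recruits PI3 kinase through its phosphorylated tail. Lapatinib blocks the kinases of EGFR and ERBB2. Raised transcription of ERBB receptors after such inhibition is known from HER2-positive breast cancer cells, and FOXA1 is a forkhead transcription factor that opens chromatin in luminal breast cells.

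In GRCh38, with GENCODE v44 gene limits, EGFR lies on the plus strand of chromosome 7 (55019017 to 55211628), ERBB2 on the plus strand of chromosome 17 (39687914 to 39730426), ERBB3 on the plus strand of chromosome 12 (56076799 to 56103505) and ERBB4 on the minus strand of chromosome 2 (211375717 to 212538841). RefSeq promoter windows of GRCh38.p14, each 250 bases before to 50 bases after a start site, were matched for EGFR (2 windows), ERBB2 and ERBB4, and none for ERBB3. The forkhead letters GTAAACA or GTCAACA, read on both strands, occurred in 5.62% of all 35116 windows. In the windows of these 3 receptors they occurred once, in that of ERBB4, 70 to 76 bases before the start. The stretch is shown because it holds the match, which is in capitals (chr2:212538861-212538890, minus strand).
ERBB4: ttccttttttatTGTTGACcaaccagtgag
A match of letters is a description of the sequence and no evidence of binding, and the windows of EGFR and ERBB2 lack only these letters in these 300 bases.

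Library totals ranged from 25749578 to 32271850 expected counts. Replicate 2 stood apart in all 4 groups. The chi-square of counts per degree of freedom was 12.7 to 18.5 for pairs of libraries with replicate 2 and 3.75 to 5.94 for replicates 1 and 3. FOXA1, the siRNA target, was low in every FOXA1 siRNA library. Its normalized counts (expected counts scaled to a common library size by the TMM method) were 8418, 8399 and 8748 in NT siRNA cells given DMSO and 12645, 12022 and 13106 in those given lapatinib. The FOXA1 siRNA libraries held 1165, 1370 and 1571 after DMSO and 1641, 1892 and 2376 after lapatinib. The luminal keratins KRT8, KRT18 and KRT19 were abundant, with group means of 50708 to 118375 normalized counts, while CDH1 (E-cadherin) was near the limit of detection, with group means of 2.87 to 13.8. Of 8 markers of immune, endothelial and stromal cells, only CD68, VWF and COL1A1 passed the count filter. The basal keratin KRT5 had a mean of 7.56 normalized counts with NT siRNA and 46.8 with FOXA1 siRNA in DMSO. Of the other basal markers listed, KRT14 went from 0.327 to 5.56 and TP63 from 8.15 to 7.12 in the same groups. The part of these genes in the receptor results was not tested.

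The 4 receptors were expressed at very different levels. Levels of different genes were compared in TPM, a deposited measure of transcript abundance that is corrected for transcript length. With NT siRNA and DMSO, ERBB2 stood at 2826, 3493 and 2901 TPM in the 3 replicates. ERBB3 stood at 166, 183 and 158 TPM, EGFR at 74.7, 68.5 and 69.7 TPM, and ERBB4 at 0.45, 0.55 and 0.49 TPM. By TPM ERBB2 ranked between 17 and 24 of the 20531 genes in these libraries and ERBB4 between 12411 and 12454. ERBB2 alone held 92.7% ± 0.563 (SD, n = 3) of the summed TPM of the 4 receptors.

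**Figure D1:**
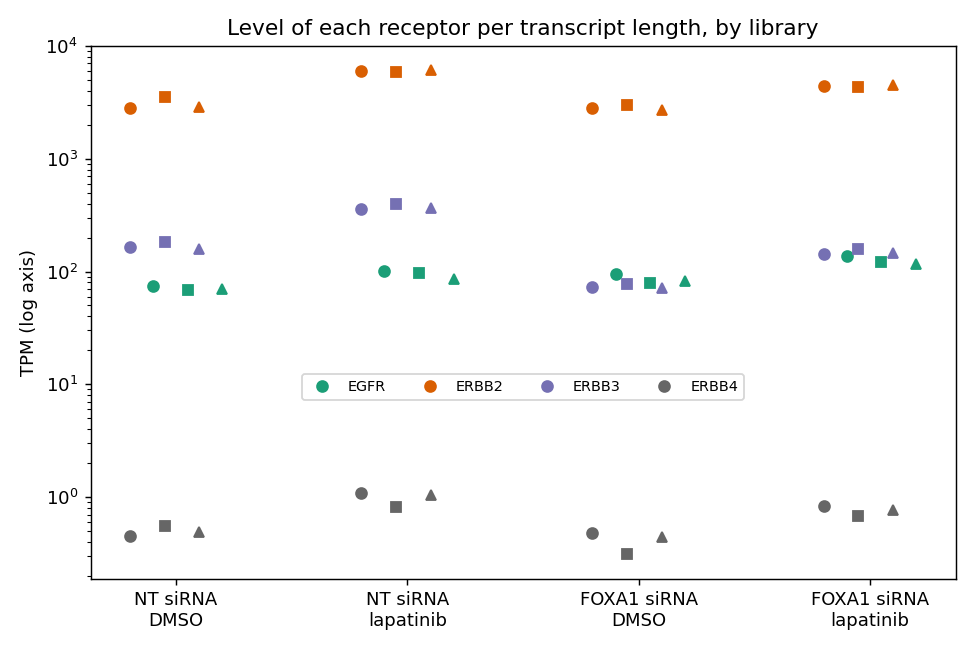
TPM of the 4 receptors in each library on a log axis, by siRNA and drug; circles, squares and triangles are replicates 1, 2 and 3. ERBB2 lies highest in all 12 libraries and ERBB4 lowest, while EGFR and ERBB3 change places in the FOXA1 siRNA libraries treated with DMSO.

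The order ERBB2, ERBB3, EGFR, ERBB4 held in 3 of the 4 groups. ERBB3 exceeded EGFR 2.38-fold in mean TPM with NT siRNA and DMSO and 3.96-fold after lapatinib. With FOXA1 siRNA and DMSO, EGFR (95.2, 79.4 and 82.4 TPM) lay above ERBB3 (72.3, 77.9 and 71.6 TPM) in every library. With FOXA1 siRNA and lapatinib, ERBB3 (142, 159 and 146 TPM) lay above EGFR (138, 121 and 117 TPM) in every library. In both FOXA1 siRNA groups the 2 receptors were close neighbors, with a mean ratio of 1.16 and 1.19, and their ranges were separated only narrowly. All pairs of neighbors other than ERBB3 and EGFR were at least 15.9-fold apart.

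Lapatinib raised all 4 receptors in control cells. This comparison asks how the family responds when the kinases of EGFR and ERBB2 are blocked. In the edgeR quasi-likelihood test 4 of the 4 receptors were higher at a Benjamini-Hochberg adjusted p under 0.05, where 30.5% of the 13713 genes tested were higher and 29.2% lower. ERBB2, ERBB3 and ERBB4 also passed a log2 fold limit of 1, against 6.64% of all genes. ERBB2 lay at the limit (1.01) and ranged from 0.95 to 1.07 with 1 library left out.

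ERBB4, which binds neuregulins and has an active kinase, showed the largest fitted change and the largest error. It had 74.6, 58.1 and 94.7 normalized counts in DMSO and 210, 155 and 207 in lapatinib. The groups did not overlap, though the share of all genes without overlap is not given here. The log2 fold change of ERBB4 was 1.36 ± 0.207 (SE, adjusted p = 0.000611). ERBB3 had 10143, 11565 and 10229 normalized counts in DMSO and 23066, 26144 and 24058 in lapatinib, a log2 fold change of 1.23 ± 0.0700 (adjusted p = 4.98e-06). ERBB2 had 210250, 251844 and 210802 normalized counts in DMSO and 441735, 423488 and 455965 in lapatinib. Each ERBB2 library treated with lapatinib was well above each DMSO library, with a 2.01-fold increase (adjusted p = 1.33e-05) and a 95% interval of 0.84 to 1.18 on the log2 scale. After lapatinib ERBB2 transcripts took 1.45% ± 0.0415 (SD, n = 3) of all expected counts, against 0.740% ± 0.0822 in DMSO.

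EGFR, the receptor of EGF and TGFA, rose least. Its normalized counts were 6645, 5697 and 5938 under DMSO, and lapatinib brought them to 8688, 7833 and 7353. The groups did not overlap, again without a share of all genes to set beside it. The log2 fold change of EGFR was 0.42 ± 0.0794 (adjusted p = 0.00204), a 1.34-fold increase.

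**Figure D2:**
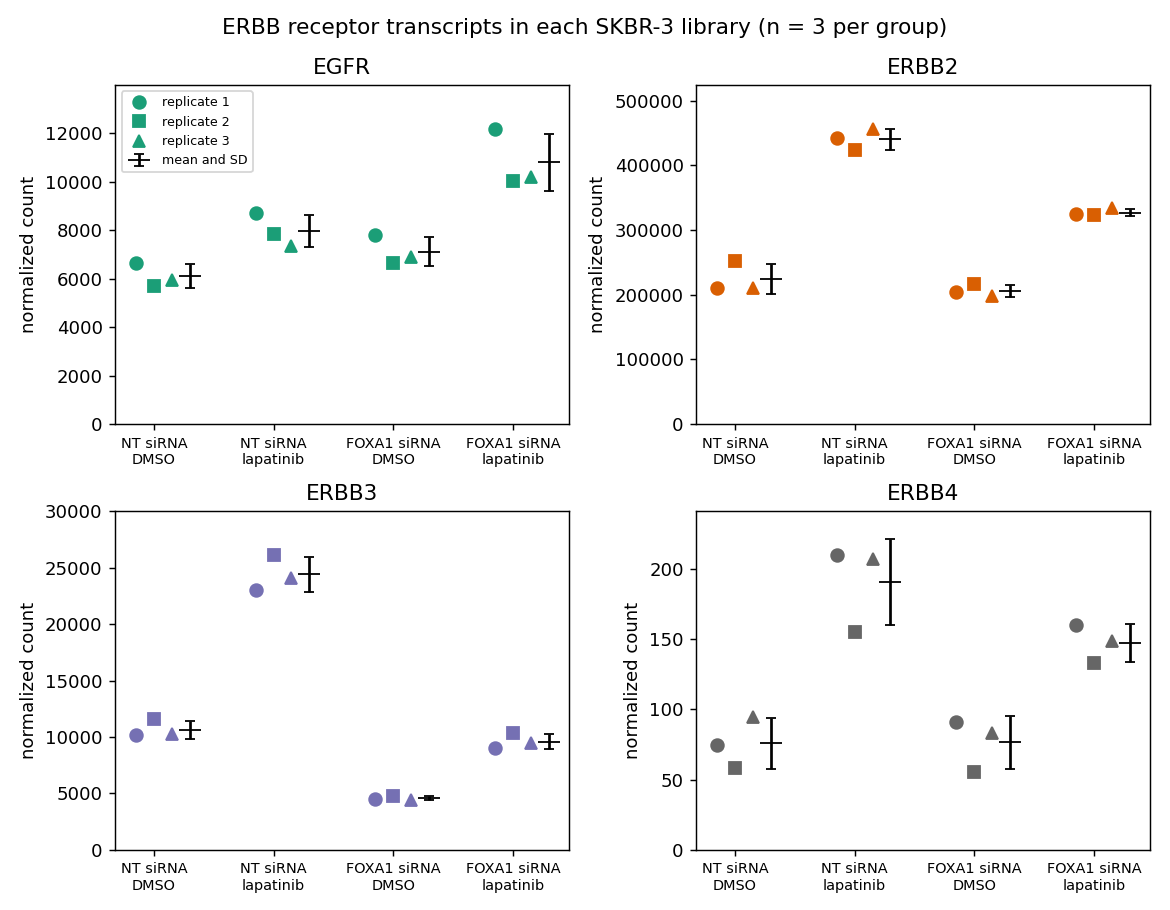
Normalized counts (TMM-scaled expected counts, linear axes from 0) of each receptor in the 12 libraries, with the mean and SD of 3 replicates beside the points. EGFR is highest when both treatments are given, ERBB2, ERBB3 and ERBB4 are highest with NT siRNA and lapatinib, and ERBB3 is lowest with FOXA1 siRNA and DMSO.

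With FOXA1 siRNA, lapatinib again raised 4 of the 4 receptors, where 29.0% of the 13745 genes tested were higher and 29.1% lower. ERBB3 passed the log2 fold limit of 1, as did 4.93% of genes, and ERBB4 lay just under it (0.96, and 0.77 to 1.11 with 1 library left out). ERBB3 rose from 4523, 4774 and 4406 to 8995, 10350 and 9442 normalized counts, with a log2 fold change of 1.09 ± 0.0588 (adjusted p = 4.69e-06). ERBB4 went from 91.3, 55.2 and 83.2 to 160, 133 and 149 normalized counts, with a log2 fold change of 0.96 ± 0.194 (adjusted p = 0.00303). ERBB2 went from 204125, 216076 and 198142 to 324394, 322779 and 333325 normalized counts, with a log2 fold change of 0.68 ± 0.0383 (adjusted p = 5.44e-06). EGFR went from 7792, 6654 and 6871 to 12161, 10037 and 10189 normalized counts, with a log2 fold change of 0.62 ± 0.0871 (adjusted p = 0.000440). No receptor's groups overlapped, but the share of all genes without overlap is not given here, so this does not set the receptors apart.

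FOXA1 siRNA moved EGFR and ERBB3 in opposite directions. This comparison asks which receptors depend on FOXA1 without the drug. In DMSO, ERBB3 was 2.32-fold lower, with a log2 fold change of -1.21 ± 0.0615 (adjusted p = 9.82e-06), and EGFR was 1.17-fold higher, with a log2 fold change of 0.23 ± 0.0754 (adjusted p = 0.0393). Of all 13694 genes tested, 21.9% were higher and 21.3% lower, and 2.77% passed the log2 fold limit of -1, as ERBB3 did. The EGFR groups did not overlap, though the share of all genes without overlap is not given here. EGFR was higher in each of the 3 same-numbered pairs, by 0.23, 0.22 and 0.21 on the log2 scale. The EGFR call was lost in a model of all 12 samples (adjusted p = 0.0740) and without replicate 2 or 3 of the NT siRNA group (0.0775 and 0.115) or replicate 1 or 3 of the FOXA1 siRNA group (0.139 and 0.0699). Blocking on the replicate number gave 0.23 ± 0.0268 for EGFR (adjusted p = 4.92e-05), which is called. The share of all genes higher with that block is not given here. EGFR was also called from replicates 1 and 3 alone (0.22 ± 0.066, adjusted p = 0.017).

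ERBB2 and ERBB4 were not called in DMSO. The log2 fold change of ERBB2 was -0.11 ± 0.0724 (adjusted p = 0.244), and its groups overlapped. Blocking on the replicate number gave -0.11 ± 0.0317 (adjusted p = 0.0138), which is called, as were 30.2% of genes in the lower direction. ERBB2 was not called from replicates 1 and 3 alone (-0.06 ± 0.0286, adjusted p = 0.0926). The same-numbered differences were -0.22 in replicate 2 and -0.04 and -0.09 in replicates 1 and 3 on the log2 scale. ERBB4 had a log2 fold change of 0.02 ± 0.247 (adjusted p = 0.961). Its 95% interval of -0.55 to 0.59 holds changes in both directions, at 55.2 to 94.7 normalized counts, and was -0.32 to 0.36 with the block.

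In lapatinib-treated cells the siRNA reduced ERBB2 as well as ERBB3. ERBB3 was 2.57-fold lower, with a log2 fold change of -1.36 ± 0.0675 (adjusted p = 7.29e-06). ERBB2 was 1.36-fold lower, with a log2 fold change of -0.45 ± 0.0389 (adjusted p = 6.58e-05), and EGFR was 1.34-fold higher, with a log2 fold change of 0.42 ± 0.0893 (adjusted p = 0.00561). None of these 3 receptors had overlapping groups, and the share of all genes without overlap is not given here. Of 13727 genes tested, 22.7% were higher and 22.2% lower, and 3.9% passed the log2 fold limit of -1, as ERBB3 did.

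ERBB4 had a log2 fold change of -0.39 ± 0.151 in lapatinib (adjusted p = 0.0681), and its groups overlapped, since replicate 2 with NT siRNA (155 normalized counts) lay below replicate 1 with FOXA1 siRNA (160). Blocking on the replicate number gave -0.38 ± 0.101 (adjusted p = 0.00651), which is called, as were 31.1% of genes in the lower direction. It was also called without replicate 2 of the NT siRNA group (adjusted p = 0.0122) and from replicates 1 and 3 alone (-0.45 ± 0.119, adjusted p = 0.0159).

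**Figure D3:**
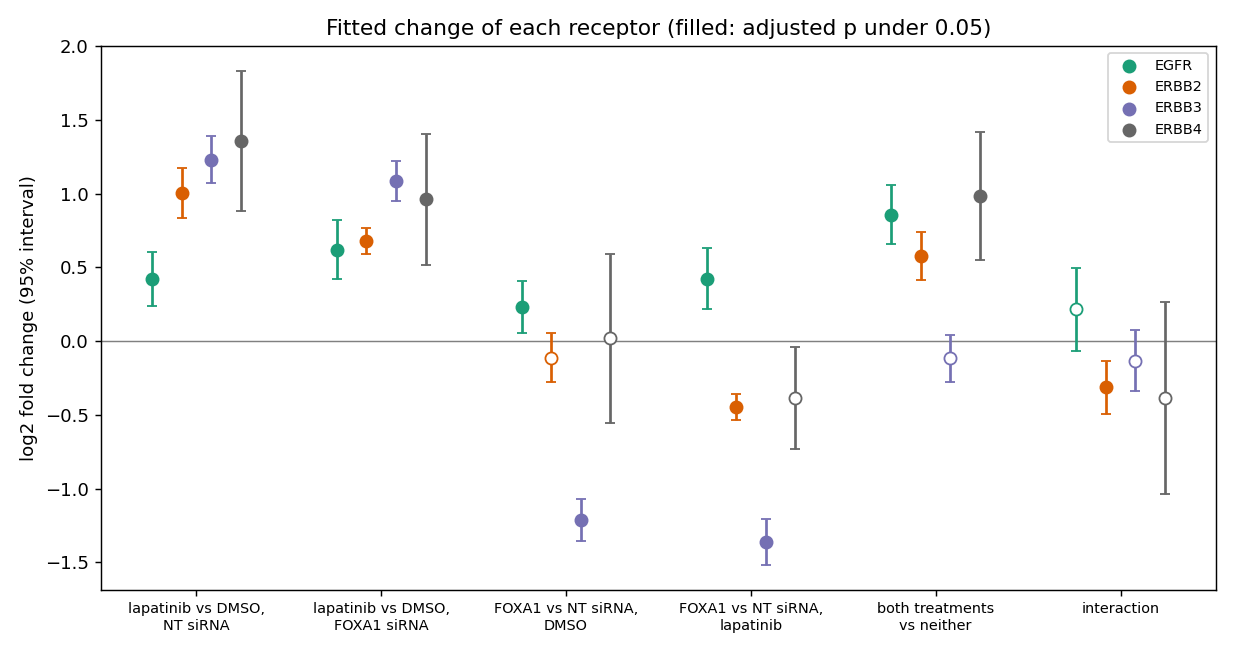
Fitted log2 fold change of each receptor with its 95% interval in the 5 comparisons of 2 groups and for the interaction, from the edgeR fit without a replicate block. Filled points have an adjusted p under 0.05. ERBB3 is the only receptor with a log2 fold change under -1, and EGFR the only one that is higher in all 5 comparisons with a call.

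The 2 treatments together left the receptors at different distances from untreated control cells. EGFR was 1.81-fold higher with FOXA1 siRNA and lapatinib than with NT siRNA and DMSO, with a log2 fold change of 0.86 ± 0.0875 (adjusted p = 4.65e-05). ERBB4 was 1.98-fold higher, with a log2 fold change of 0.99 ± 0.189 (adjusted p = 0.00178), and ERBB2 1.49-fold higher, with a log2 fold change of 0.57 ± 0.0709 (adjusted p = 0.000139). No groups of these 3 receptors overlapped, again without a share of all genes to set beside it. ERBB3 was not called, with a log2 fold change of -0.12 ± 0.0698 (adjusted p = 0.166), and the interval of -0.28 to 0.04 bounds the difference. Blocking on the replicate number gave -0.12 ± 0.0362 (adjusted p = 0.0224), which is called, as was -0.13 ± 0.0411 from replicates 1 and 3 alone (adjusted p = 0.0176). Of 13813 genes tested, 33.9% were higher and 32.5% lower, and with the block 35.1% were lower.

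Whether the lapatinib response itself differed between the siRNAs was tested by the interaction. ERBB2 was the only receptor called, with a log2 value of -0.31 ± 0.0834 (adjusted p = 0.0424), a smaller response with FOXA1 siRNA. Of 14012 genes tested, 3.99% had a called positive and 3.2% a called negative interaction. The ERBB2 call was lost without any 1 of 10 of the 12 libraries, with an adjusted p of up to 0.105, and it held without replicate 2 of either NT siRNA group. The ERBB2 response in NT siRNA cells was 0.75 on the log2 scale in replicate 2 and 1.07 and 1.11 in replicates 1 and 3. From replicates 1 and 3 alone the interaction was -0.38 ± 0.0399 (adjusted p = 0.000283).

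EGFR was the only receptor with a positive interaction, 0.21 ± 0.130 on the log2 scale (adjusted p = 0.375). Blocking on the replicate number gave 0.21 ± 0.05105 (adjusted p = 0.0118), which is called, and ERBB2 stayed called at -0.31 ± 0.0759 (adjusted p = 0.0117). With the block 11.1% of genes had a called positive and 9.22% a called negative interaction. ERBB3 (-0.13 ± 0.0942, adjusted p = 0.466) and ERBB4 (-0.38 ± 0.2996, adjusted p = 0.512) were not called, nor were they with the block (adjusted p = 0.0503 and 0.167).

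The balance between ERBB3 and ERBB2 was measured within each library, where no scaling between libraries enters. ERBB3 TPM amounted to 5.86%, 5.23% and 5.46% of ERBB2 TPM in NT siRNA cells given DMSO and to 6.03%, 6.81% and 6.04% in those given lapatinib. The FOXA1 siRNA libraries reached 2.58%, 2.62% and 2.63% after DMSO and 3.22%, 3.66% and 3.24% after lapatinib. Every FOXA1 siRNA library lay below every NT siRNA library, and within each siRNA every lapatinib library lay above every DMSO library. The log2 ratio fell by 1.08 with FOXA1 siRNA in DMSO and by 0.90 in lapatinib, and it rose by 0.19 with lapatinib in control cells and by 0.37 with FOXA1 siRNA. Each of these differences had a two-sided exact permutation p of 0.1, the smallest that 3 samples against 3 can give.

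EGFR relative to ERBB2 followed another course. EGFR TPM was 2.34% ± 0.346 of ERBB2 TPM with NT siRNA and DMSO and 1.59% ± 0.162 after lapatinib (SD, n = 3). With FOXA1 siRNA it was 3.03% ± 0.365 in DMSO and 2.83% ± 0.275 in lapatinib.

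**Figure D4:**
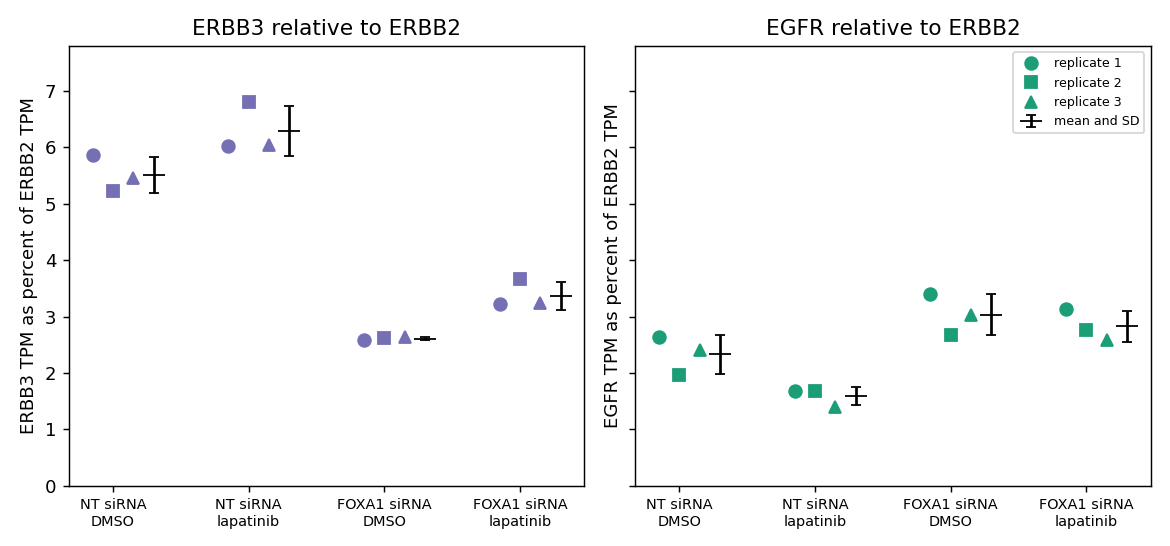
TPM of ERBB3 (left) and EGFR (right) as a percent of ERBB2 TPM in each library, with the mean and SD of 3 replicates. ERBB3 falls from above 5% to below 4% with FOXA1 siRNA, while EGFR is lowest with NT siRNA and lapatinib.

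The deposited mean transcript length, which moves when the mix of a gene's transcripts moves, was compared for each receptor. ERBB2 was nearly constant at 4522 to 4566 bases, ERBB3 ranged from 3742 to 4139 bases and EGFR from 5019 to 5431 bases. No comparison of any receptor reached an exact permutation p below 0.1, and the only value at 0.1, the smallest possible, was ERBB3 after lapatinib with FOXA1 siRNA (3866 to 3968 bases). ERBB4 had a length of 11147 to 11881 bases in 10 libraries but of 10023 and 6614 bases in replicates 1 and 2 of the NT siRNA and DMSO group. Replicate 2 therefore had the lowest ERBB4 count of its group, 58, and the highest ERBB4 TPM, 0.55. The EGFR counts were not whole in any library, as an estimate gives where reads are split between genes, while those of the other 3 receptors were whole in all 12.

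The ERBB2 amplicon on chromosome 17 did not move as a block. The list held 8 neighbors of ERBB2, and all 8 passed the count filter. After lapatinib in control cells 4 were higher and 1 lower, where 30.5% and 29.2% of all genes were. The median log2 fold change was 0.42 against 0.03 for all genes tested. GRB7, an adaptor that binds ERBB2 and lies 7501 bases from it, rose most, from a mean of 10484 to 44301 normalized counts (log2 fold change 2.11 ± 0.0778, adjusted p = 1.47e-06). PGAP3, which modifies lipid anchors of proteins, rose by 0.57 ± 0.0591 on the log2 scale (adjusted p = 7.14e-05), and MIEN1 fell by 0.34 ± 0.0576 on that scale (adjusted p = 0.00115). STARD3, a cholesterol-binding protein of endosomes, had a log2 fold change of 0.00 ± 0.0647 (adjusted p = 0.998).

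With FOXA1 siRNA in DMSO 1 of the 8 neighbors was higher and 2 lower, which is near the share of all genes (21.9% higher and 21.3% lower). With the block 2 were higher and 2 lower, where 30.2% of all genes were lower. The share of all genes higher with the block is not given here. PPP1R1B rose by 1.82 ± 0.289 on the log2 scale (adjusted p = 0.00169), and GRB7 and MIEN1 fell by 0.31 ± 0.0651 and 0.26 ± 0.0509 (adjusted p = 0.00609 and 0.00416). In lapatinib PPP1R1B was 2.12 ± 0.128 higher and GRB7 0.45 ± 0.0744 lower on the log2 scale (adjusted p = 1.24e-05 and 0.00163), and the other 6 were not called. Of all genes, 22.7% were higher and 22.2% lower in lapatinib. Blocking on the replicate number gave 4 higher and 2 lower neighbors in lapatinib. With that block 31.1% of all genes were lower, and the share higher is again not given. PGAP3 and MIEN1 overlap the GENCODE limits of ERBB2 on the opposite strand. The sources name both a stranded kit and the TruSeq v2 kit, and whether strand was used in counting is not given in the sources used here. The ERBB2 counts were whole in all 12 libraries, and whether those of PGAP3 and MIEN1 were is not given here. How reads in the overlaps were assigned was not tested.

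**Figure D5:**
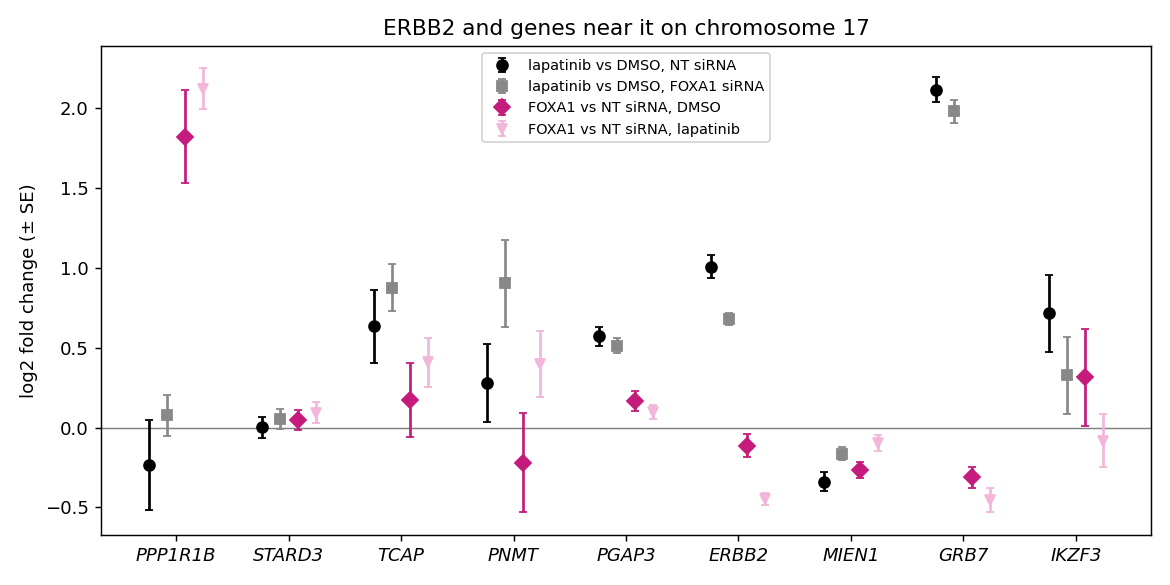
Fitted log2 fold change with its SE of ERBB2 and 8 neighboring genes, in their order along chromosome 17, in the 4 comparisons of a single treatment. GRB7 and ERBB2 rise with lapatinib and fall with FOXA1 siRNA in lapatinib, STARD3 stays near 0, and PPP1R1B rises with FOXA1 siRNA.

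The ligands of the family were expressed in part. Of 11 ligand genes 6 passed the count filter, and NRG1, the main ligand of ERBB3, had 0 counts in all 12 libraries, where a count of 0 allows up to 3. EGF, a ligand of EGFR, rose with lapatinib by 1.28 ± 0.0749 on the log2 scale in control cells. HBEGF, which binds EGFR and ERBB4, had a log2 fold change of -2.17 ± 0.273 in the same comparison, from a mean of 67.0 to 14.4 normalized counts. Both were called, and with them EPGN was lower and NRG2 higher. That made 2 of the 6 higher and 2 lower, near the 30.5% and 29.2% of all genes. FOXA1 siRNA left 3 of the 6 ligands higher and 1 lower in DMSO (21.9% and 21.3% of all genes), and 3 higher and 0 lower in lapatinib (22.7% and 22.2% of all genes). HBEGF was among those higher in lapatinib, with a log2 fold change of 1.33 ± 0.3025 (adjusted p = 0.00817), and EPGN, a ligand of EGFR, was higher in lapatinib by a log2 fold change of 2.61 ± 0.3197 (adjusted p = 0.000362).

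Among 18 adaptors and enzymes that act close to the receptors, 9 were higher and 5 lower after lapatinib in control cells (30.5% and 29.2% of all genes), with a median log2 fold change of 0.27. The largest changes after GRB7 were in PLCG1, a phospholipase recruited by EGFR, which fell by 1.22 ± 0.0635 on the log2 scale, and SOS2, an exchange factor of RAS, which rose by 1.005 ± 0.0518. FOXA1 siRNA in DMSO left 5 higher and 4 lower (21.9% and 21.3% of all genes), with PLCG1 again lower, by a log2 fold change of -0.81 ± 0.0608. With the block 8 were higher and 6 lower, where 30.2% of all genes were lower and the share higher is not given. With both treatments PLCG1 was at -1.86 ± 0.0695 on the log2 scale and SOS2 at 1.53 ± 0.0453.

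Of 19 genes of receptor turnover and inhibition, 7 were higher and 7 lower after lapatinib in control cells, near the 30.5% and 29.2% of all genes, with a median log2 fold change of 0.06. UBASH3B, a phosphatase that binds ubiquitin, had a log2 fold change of -3.24 ± 0.190, and the ubiquitin ligases NEDD4L and CBLB rose by 1.77 ± 0.0922 and 1.25 ± 0.0761 on the log2 scale. ERRFI1 (MIG6), which binds and inhibits ERBB kinases, had a log2 fold change of -0.76 ± 0.145 after lapatinib and of 1.34 ± 0.1225 after FOXA1 siRNA in DMSO. NEDD4L was the turnover gene with the largest interaction, -1.54 ± 0.182 on the log2 scale (adjusted p = 0.000807). Lapatinib changed it by 0.22 ± 0.162 with FOXA1 siRNA (adjusted p = 0.284), so that it was called with NT siRNA but not with FOXA1 siRNA.

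Of 15 tested transcription factors known to act on ERBB genes, 12 were higher and 1 lower after lapatinib in control cells (30.5% and 29.2% of all genes), with a median log2 fold change of 0.49. FOXO3, which is held out of the nucleus by AKT, rose by 1.88 ± 0.05625 on the log2 scale (adjusted p = 1.27e-06). XBP1 rose by 1.34 ± 0.0926, and GATA3, a partner of FOXA1 in luminal cells, by 0.86 ± 0.0888. In lapatinib, FOXA1 siRNA left 8 of the 15 lower and 1 higher (22.2% and 22.7% of all genes). FOXA1 itself, the siRNA target, was among the 8. With the block 9 were lower and 2 higher, where 31.1% of all genes were lower and the share higher is not given. XBP1 had a log2 fold change of -1.53 ± 0.113 and GATA3 of -0.81 ± 0.09995 in that comparison, while TFAP2B was 1.31 ± 0.282 higher.

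Each receptor had a different set of most similar genes over the 12 libraries, among 12166 genes with at least 10 counts in all of them. These correlations of log2 CPM rest on 4 groups that share libraries, and they are descriptions. The genes most like ERBB3 were CTDSP2, CLGN, KIAA0652, GPBP1L1 and UBE2H, with Pearson r of 0.989 to 0.995. Those most like ERBB2 were GLTSCR2, TSG101, ALDH2, TTC39A and CD9 (0.990 to 0.995). EGFR was followed by DLX3, HMBOX1, PTPN14, NBAS and SGK269 (0.968 to 0.981), and ERBB4 by GPR126, C14orf102, AKAP9, MTMR10 and CUL4B (0.978 to 0.984). Among the receptors r was 0.850 for ERBB2 with ERBB3, 0.871 for ERBB2 with ERBB4 and 0.0994 for EGFR with ERBB3. With FOXA1, r was 0.857 for ERBB3, 0.483 for ERBB2, 0.315 for ERBB4 and -0.373 for EGFR.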

How the data were processed

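RNAseq libraries of polyA RNA were grouped by their labels. By the methods, reads were aligned to hg38 with STAR and quantified with Salmon. The deposited files have RSEM's columns, and its version is not given in the sources used here. The submitters' processing notes name RSEM, R 3.2.2 and DESeq2 1.12.3. The authors deposited expected counts, TPM and transcript lengths per gene. Expected counts, whole for 87.5% to 88.1% of genes, were rounded and tested with edgeR 4.0.16 (R 4.3.3) by the quasi-likelihood test after TMM scaling, on genes reaching 10 counts in 1 or more of the samples compared, with Benjamini-Hochberg adjustment over all genes tested. Genes without a symbol (29) held up to 0.0459% of counts. Normalized counts are at the average library size. Alternatives were RLE and upper-quartile scaling, DESeq2 1.42.0, other filters, all 12 samples in 1 model, the replicate number as a block, and leaving out each sample. Deviations from the group means correlated between same-numbered samples of different groups (18 of 18 pairs, r of 0.244 to 0.627). The mean r was 0.393, against -0.185 for samples with different numbers. The numbers were taken to pair the samples in the fits with the block only. The main fits, their calls and the fits that left out 1 library ignored this pairing. Replicate 2 stood apart in every group, and the labels do not say what the numbers stand for. A fit of replicates 1 and 3 alone was added after the data were seen. Intervals cover the fitted spread, and limits on 0 counts cover counting error only. Members and lists were chosen with earlier results of these data known. The genes named are the receptors, FOXA1, the 5 genes most like each receptor, and up to 6 called genes per list and comparison. A gene of a list that is named without a call was chosen after its values were seen. The test was checked on simulated data that held no replicate effect, so that check does not cover the spread that replicate 2 brings. Python 3.11.15, scipy 1.17.1 and matplotlib 3.10.9 were used for tables and plots.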

Additional observations from a re-analysis of the deposited data

Results flagged for a closer look

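The lapatinib response of ERBB2 differed between the siRNAs, with an interaction of -0.3132 on the log2 scale, or -0.3149 when blocked on the replicate number (adjusted p = 0.0424 and 0.0117). The log2 fold change of ERBB2 after lapatinib was 1.01 in NT siRNA cells and 0.68 in FOXA1 siRNA cells. The response of EGFR differed in the other direction, at 0.2116 with the block (adjusted p = 0.0118), from 0.42 in NT siRNA cells to 0.62 in FOXA1 siRNA cells. The EGFR interaction was not called without the block (adjusted p = 0.375). The ERBB2 interaction without the block was called in only 2 of 12 fits that left out 1 library. With the block 11.1% of all genes had a called positive and 9.22% a called negative interaction.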

How the results depend on the processing

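Scaling by RLE or the upper quartile, DESeq2 and the filters on low counts changed no call of a receptor in the comparisons of 2 groups. EGFR after FOXA1 siRNA in DMSO was 0.22 on the log2 scale and no longer called with all 12 samples in 1 model. The ERBB2 interaction was -0.31 with upper-quartile scaling (adjusted p = 0.0695) and -0.31 without a filter (adjusted p = 0.0524), and was not called in either.

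With the replicate number as a block, calls were gained for ERBB2 after FOXA1 siRNA in DMSO (-0.11), ERBB4 after FOXA1 siRNA in lapatinib (-0.38), ERBB3 with both treatments (-0.12) and the EGFR interaction (0.21), and the block changed no other call of a receptor. Interactions called over all genes went from 559 to 1561 higher and from 449 to 1292 lower with the block. From replicates 1 and 3 alone, an alternative chosen after seeing the data, calls were gained for ERBB4 after FOXA1 siRNA in lapatinib (-0.45) and ERBB3 with both treatments (-0.13), no other call of a receptor changed, and 1426 interactions were higher and 1092 lower. Leaving out 1 library gave 300.0 to 782 higher and 242 to 583 lower.

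Leaving out 1 library gave 0.16 to 0.30 for EGFR after FOXA1 siRNA in DMSO, -0.40 to -0.27 for the ERBB2 interaction, -0.52 to -0.31 for ERBB4 after FOXA1 siRNA in lapatinib and -0.14 to 0.21 for ERBB4 after FOXA1 siRNA in DMSO, whose sign turned. Differences in mean transcript length that turned sign without 1 library were those of ERBB2 after lapatinib with FOXA1 siRNA (-4.0 to 14.1 bases) and after FOXA1 siRNA in lapatinib (-9.02 to 9.03 bases), of ERBB3 after FOXA1 siRNA in lapatinib (-89.2 to 7.6 bases) and with both treatments (-48.3 to 95.8 bases), and of EGFR with both treatments (-82.3 to 74.95 bases). ERBB4 had 58 to 203 counts, the fewest of the receptors.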
